A study of Homo sapiens with 2 samples.

Results

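The histone and major histocompatibility complex (MHC) window of chromosome 6 was examined in 2 lists of ATAC-seq peaks from Z-138, an established human mantle cell lymphoma line of malignant mature B cells. ATAC-seq marks open chromatin by the insertion of a transposase. The window runs from 25000000 to 35000000 on chromosome 6 (hg19). It held 323 of the 41540 regions listed for the SMARCA4 knockdown library and 354 of the 55124 listed for the control library, counted on chromosomes 1 to 22 and X. Each region is 1 deposited peak, and every peak that lay wholly between the borders was taken. No peak spanned a border in either list (0 in each). The window was chosen by measured values, since the share of control regions overlapped by the other list had stood out in its upper part in an earlier look at these same lists. Region numbers and overlapped shares are therefore given as a description.

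Regions were put into 5 blocks by the position of their summit. The histone gene cluster (25900000 to 28000000) held 102 knockdown and 99 control regions, and MHC class I (29600000 to 31500000) held 63 and 70. Class III (31500000 to 32300000) held 31 knockdown and 33 control regions, and class II (32300000 to 33200000) held 35 and 38. The remainder of the window held 92 knockdown and 114 control regions. Just inside the left border the knockdown list began at 25070942 with a fold of 5.30 and the control list at 25018265 with a fold of 6.45. Just outside it, the last regions began at 24992251 with a fold of 9.08 in the knockdown list and at 24992170 with a fold of 8.71 in the control list. At the right border, the last regions inside had folds of 5.502 in the knockdown and 4.03 in the control list, and the first outside had 4.31 and 5.80.

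Histones are the proteins around which DNA is wound. Most genes for the replication-dependent core histones and for the linker histones lie in clusters, and the largest human one is on the short arm of chromosome 6. They are transcribed mainly during DNA synthesis. RefSeq names 55 protein-coding genes of this kind on chromosome 6, of which 6 code for linker histones, 12 for H2A, 15 for H2B, 10 for H3 and 12 for H4. The MHC lies next to it. Class I genes such as HLA-B and HLA-C present peptides from inside the cell to cytotoxic T cells. Class II genes such as HLA-DRA, HLA-DRB1 and HLA-DQA1 present peptides to helper T cells and are characteristic of B cells and other antigen-presenting cells. In the class II block also lie TAP1 and TAP2, whose product carries peptides into the endoplasmic reticulum. Class III holds genes of complement (C2 and CFB) and of the tumour necrosis factor family (TNF, LTA and LTB). Regions were not assigned to single genes, because the gene table used here is of the build GRCh38 and the peaks are of hg19.

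Both libraries came from cells grown with doxycycline. The knockdown cells carried an shRNA against SMARCA4, a catalytic ATPase of the SWI/SNF remodelling complexes, and the control cells carried a control shRNA. The series' design asks about this knockdown and the response to ibrutinib, a BTK inhibitor, with venetoclax, a BCL2 inhibitor, although the labels of these libraries name neither drug. There was 1 library per group, so no test between groups could be made, and whether any difference exceeds the spread between cultures cannot be judged. The files give no read totals. From the peak caller's values, the knockdown library had a recovered read number 1.42 times that of the control library. The lowest summit listed had 4 stacked reads in the knockdown and 3 in the control library, so a region outside a list is one under the caller's limit and was not shown to be closed. Peak lists do not measure SMARCA4 itself, and the knockdown was not checked here.

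Region numbers differed less between the lists in the window than outside it. The knockdown list held 91.2% as many regions as the control list in the window (95% counting interval 78.2 to 106%), against 77.9% on the rest of chromosome 6 (73.9 to 82.2%) and 75.3% on the rest of the series (74.3 to 76.2%). By block this percentage was 103 in the histone cluster (77.4 to 137), 90.0 in class I (63.0 to 128), 93.9 in class III (55.6 to 158), 92.1 in class II (56.5 to 150) and 80.7 in the remainder (60.6 to 107). These intervals treat knockdown and control numbers as independent, which they are not. In the histone cluster, 75 of 102 knockdown and 78 of 99 control regions overlapped a region of the other list. The window was also picked by the overlapped share of control regions, to which these percentages are tied. Whether an interval includes the percentage of another area therefore decides nothing here, and the percentages are a description. Counting intervals here cover counting error over regions only. Regions covered 70.9 kb in the knockdown and 74.8 kb in the control list, so the knockdown length was 94.7% of the control length, against 82.0% in the rest of the series. The covered length was 113% of the control length in the histone cluster and 101.5% in class III. It was 94.7% in class I, 85.5% in class II and 78.1% in the remainder.

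**Figure D1:**
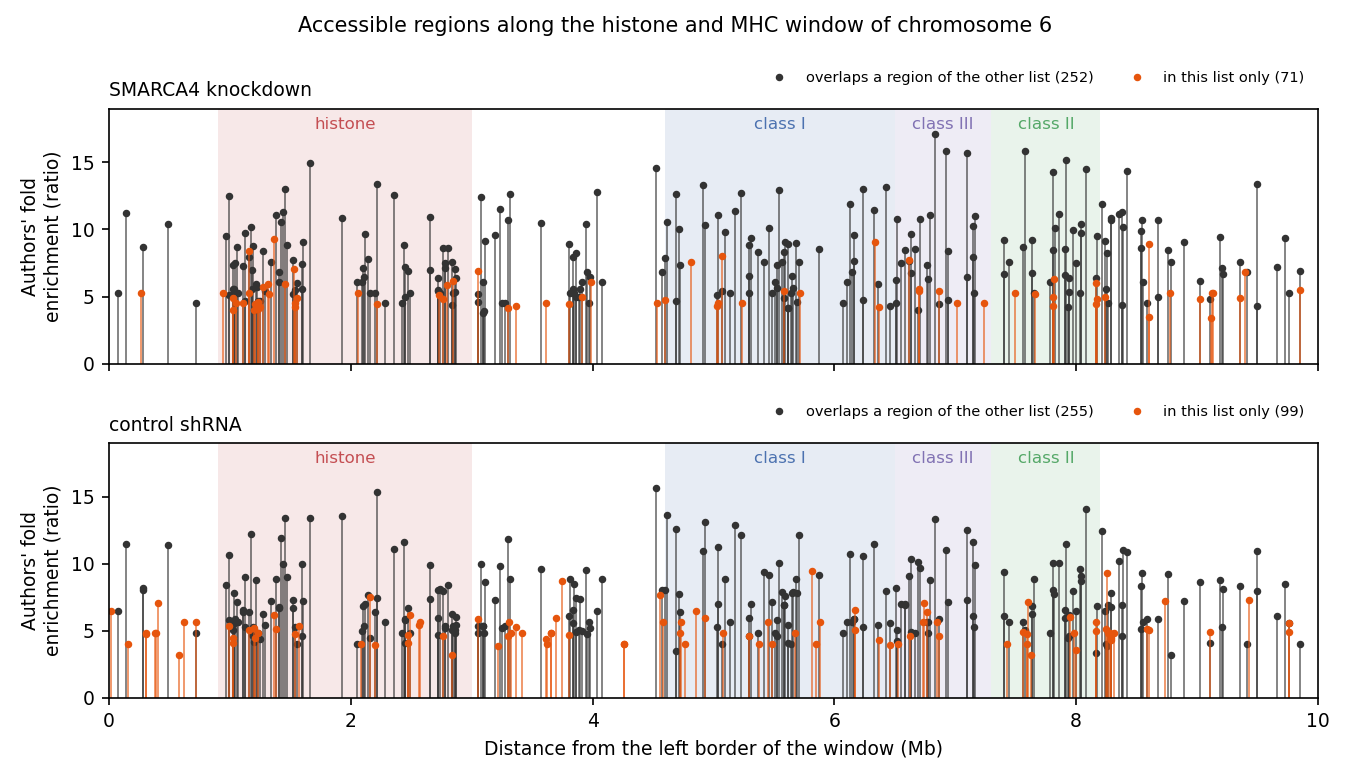
Authors' fold enrichment (vertical axis, ratio) of each accessible region against its distance from the left border of the window in Mb, for the SMARCA4 knockdown library (upper panel, 323 regions) and the control library (lower panel, 354 regions), with the named blocks shaded. Regions that overlap a region of the other list are dark (252 knockdown, 255 control) and regions of 1 list are orange (71 knockdown, 99 control), and the orange ones stay below a fold of 10 in both panels.

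Most regions of the window were present in both lists. Of the 323 knockdown regions, 252 shared at least 1 bp with a control region, or 78.0% (exact 95% interval 73.1 to 82.4%), and of the 354 control regions, 255 shared at least 1 bp with a knockdown region, or 72.03% (67.0 to 76.6%). This left 71 knockdown-only regions, or 21.98%, where 20.6% of all knockdown regions were without a partner. It left 99 control-only regions, or 27.97%, where 39.5% of all control regions were without one. The knockdown share thus lay near its background and the control share below it, and the control share is the value for which the window was picked. Regions of lower fold were overlapped less often, so the overlapped shares were set beside those that the fold of the regions would give from the whole genome. For the knockdown regions of the window that share was 76.0%, and for its control regions 57.1%. With strength measured by recovered summit pileup, the number of reads stacked at the summit, the shares given were 78.2% for knockdown and 60.1% for control regions.

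The control-only shares by block were lowest in the histone cluster and class III and highest in the remainder. In the histone cluster 27 of 102 knockdown regions (26.5%) and 21 of 99 control regions (21.2%) were in 1 list. It was the block in which knockdown-only regions were the larger number. In class I these were 10 of 63 knockdown (15.9%) and 18 of 70 control regions (25.7%). In class III they were 6 of 31 knockdown (19.4%) and 7 of 33 control regions (21.2%), and in class II 8 of 35 knockdown (22.9%) and 11 of 38 control regions (28.9%). In the remainder, 20 of 92 knockdown regions (21.7%) and 42 of 114 control regions (36.8%) had no partner, and this control share was the closest to the 39.5% of the whole control list. The overlapped share of control regions minus that given by fold was 23.2 percentage points in the histone cluster, 15.7 in class I, 15.9 in class III, 13.8 in class II and 7.55 in the remainder. With strength measured by summit pileup, the difference was 12.7 points in the histone cluster, below 16.9 in class I and 14.1 in class III. By that measure it was 11.8 in class II and 7.55 in the remainder. The lead of the histone cluster thus depended on the measure of strength.

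**Figure D2:**
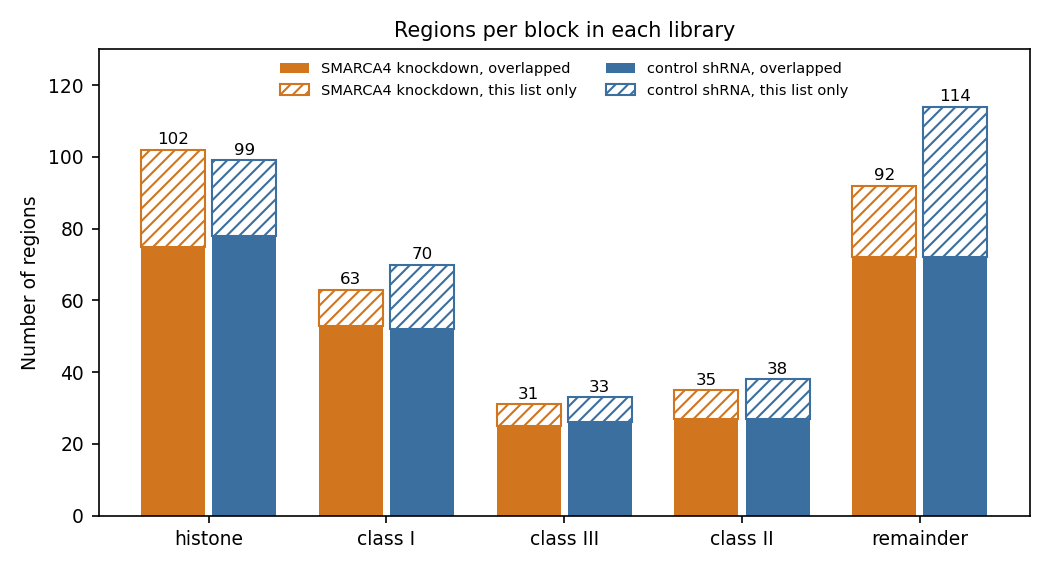
Number of accessible regions per block (vertical axis) in the SMARCA4 knockdown library (left bar of each pair) and the control library (right bar), with overlapped regions filled and regions of 1 list hatched. The histone cluster has nearly equal totals (102 knockdown, 99 control), and the remainder has the widest gap (92 and 114).

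The histone cluster was the densest block. It held 48.6 knockdown and 47.1 control regions per Mb, against 35.8 knockdown and 39.2 control regions per Mb in the MHC classes together and 21.4 and 26.5 in the remainder. At the median its regions were wider and of lower fold than all regions. Median widths were 191 bp in the knockdown and 185 bp in the control list, against 163 and 161 bp over all regions, and median folds were 5.97 and 5.82, against 7.04 and 6.45. Class II had similar median widths, 185 bp in the knockdown and 180 bp in the control list. The remainder had a lower control median fold, 5.65, though a higher knockdown one, 6.57. Regions of 600 bp or more were 3.92% of knockdown and 1.01% of control regions of the histone cluster, against 4.85 and 2.68% over all regions. The fold is the summit pileup over the local background, each with 1 read added. That background was high in this block, as described further on, while the median summit pileup was 11 reads in the knockdown and 10 reads in the control library, against 10 and 8 reads over all regions.

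The strongest histone-cluster regions were shared. In the knockdown list the highest fold was 14.9, at chr6:26659648-26660198, with 30 stacked reads, where the control region chr6:26659716-26660183 had a fold of 13.4 and 26 reads. The knockdown region of second rank, chr6:27219188-27219817, had a fold of 13.4 and 29 reads over 630 bp. It spanned 2 control regions, of which chr6:27219538-27219797 had the highest control fold of the block, 15.3, with 28 reads. The widest knockdown region of the window, chr6:26923937-26924907, spanned 971 bp with a fold of 10.8 and 26 reads. Its control partner chr6:26923909-26924891, the widest of that list at 983 bp, had the second control fold of the block, 13.5, with 32 reads. Scaled by depth, the log2 ratio of knockdown over control was -0.72 for that widest pair (counting interval -1.53 to 0.07). It was -0.22 at the highest knockdown fold (-1.02 to 0.60) and -0.37 at the highest control fold (-1.17 to 0.43). All of these intervals include 0, and the positions were picked by their fold or width. The strongest knockdown-only region, chr6:26365282-26365467, had a fold of 9.29 and 13 reads, and a control region lay 108 bp away. The strongest control-only region, chr6:27156710-27156840, reached a fold of 7.52 with 9 reads, 362 bp from a knockdown region.

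Runs of 10 or more closely spaced regions lay mostly in the histone cluster. Chaining the regions of both lists where gaps were at most 12.5 kb gave 196 stretches in the window. Of these, 4 held 10 or more regions counted over both lists, and 3 of the 4 were in the histone cluster. By median length the order differed, with 0.903 kb for stretches of the histone cluster and 8.72 kb for those of class II. The longest, chr6:26172074-26235303, was 63.2 kb long with 12 knockdown and 10 control regions, of which 4 knockdown and 3 control regions were in 1 list. The next, chr6:26020536-26066432, was 45.9 kb long with 10 knockdown and 9 control regions, of which 3 and 2 were in 1 list. Of the 27 knockdown-only regions of the histone cluster, 12 had a control region within 500 bp, and of the 21 control-only regions, 11 had a knockdown region within 500 bp. No such numbers were taken over all regions. Outside these runs the block was partly empty, since no region of either list lay in the 264 kb from 26660199 to 26923908.

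Class I regions were narrower and of higher fold than those of the histone cluster. Median widths were 159 bp in the knockdown and 148.5 bp in the control list, and median folds were 7.55 and 5.97. The knockdown region of second rank by fold, chr6:31430720-31430964, with a fold of 13.2, had 19 reads in the knockdown library against 9 reads in the control library. Scaled by depth, this pair had a log2 ratio of 0.65 (counting interval -0.56 to 1.98). At the highest control folds the ratio was below 0. At chr6:29617542-29618006 the knockdown partner had 20 reads and the control region 25 reads, with a control fold of 13.7 and a log2 ratio of -0.75 (-1.67 to 0.16). At chr6:29932672-29932901 they had 15 and 21 reads, with a control fold of 13.1 and a log2 ratio of -0.91 (-1.97 to 0.12). All of these intervals include 0, and the positions were picked by their fold.

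The widest class I regions were again shared. The widest knockdown region, chr6:30034645-30035231, spanned 587 bp with 23 reads and covered 2 control regions, of which the stronger had 20 reads. At the widest control region, chr6:30523987-30524507, which spanned 521 bp, there were 12 knockdown and 9 control reads. The strongest knockdown-only region was chr6:31334814-31334907, with a fold of 9.08 and 11 reads, and its nearest control region was 9.63 kb away. The strongest control-only region was chr6:30812988-30813257, with a fold of 9.43 and 11 reads, with no knockdown region within 62.4 kb. Those 11 control reads correspond to 14.8 reads at the depth of the knockdown library. Further along the block, 188 kb from 30882225 to 31070268 held no region of either list.

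Class III held the highest knockdown fold of the window. At chr6:31830532-31830928 the knockdown region had a fold of 17.1 and 35 reads, and the control region chr6:31830518-31830895, the strongest control region of the block, had a fold of 13.3 and 22 reads. The depth-scaled log2 ratio there was 0.25, with a counting interval of -0.56 to 1.09. At chr6:31926667-31926995 there were 25 knockdown and 15 control reads (log2 ratio 0.31, interval -0.67 to 1.34), with folds of 15.8 and 11.0. At the control region of second rank, chr6:32096014-32096273, there were 31 knockdown and 21 control reads (log2 ratio 0.14, interval -0.71 to 1.01), with folds of 15.7 and 12.5. The intervals at these 3 positions include 0, and the positions were picked by their fold. The widest knockdown region, chr6:31587756-31588656, was 901 bp long, had a summit of 17 reads and spanned 2 control regions of 12 reads each. The widest control region, chr6:31939758-31940468, was 711 bp long and spanned 2 knockdown regions, the stronger of 13 reads, against 11 control reads.

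Class III also contained the pair with the lowest ratio of the window. At chr6:31695450-31695540 the knockdown region had 5 reads and a fold of 4.03, while the control region chr6:31695365-31695555 had 14 reads and a fold of 10.1. The depth-scaled log2 ratio was -1.91, with a counting interval of -3.74 to -0.35. At the depth of the knockdown library the control summit corresponds to 18.8 reads. The strongest knockdown-only region of the block, chr6:31620715-31620831, reached a fold of 7.69 with 11 reads, and a control region lay 106 bp from it. The strongest control-only region, chr6:31744943-31745102, reached a fold of 7.07 with 8 reads, 18.6 kb from any knockdown region.

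Class II held the pair with the highest ratio of the window. The knockdown region chr6:32577653-32577885 had 23 reads and the highest knockdown fold of the block, 15.8, while the control region chr6:32577690-32577949 had 6 reads and a fold of 5.09. The depth-scaled log2 ratio was 1.51 (counting interval 0.18 to 3.10), and the summits were 11 bp apart. Further along, the pair at chr6:32653456-32653759 went the other way, with 6 knockdown and 12 control reads and a log2 ratio of -1.42 (-3.12 to 0.10, an interval that includes 0). Between these positions lay the strongest control-only region of the block, chr6:32604974-32605179, with a fold of 7.12 and 8 reads, 27.1 kb from the nearest knockdown region. These pairs were singled out as the ends of the order of ratios among pairs with at least 10 reads in 1 list. Their intervals do not account for that choice.

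At the 2 next positions by fold and at the widest region of each list in class II, the log2 ratio lay between -0.27 and 0.35. At chr6:32920801-32921135 there were 22 knockdown and 16 control reads (log2 ratio 0.04), with folds of 15.2 and 11.5. At chr6:33080029-33080229, the strongest control region of the block, there were 20 knockdown and 18 control reads, with folds of 14.5 and 14.1 and a log2 ratio of -0.27. At the widest control region, chr6:32812267-32812677, there were 22 knockdown and 15 control reads, with a log2 ratio of 0.13. At the widest knockdown region, chr6:32557429-32557806, there were 12 knockdown and 7 control reads, with a log2 ratio of 0.35. The strongest knockdown-only region of class II, chr6:32821444-32821577, had a fold of only 6.30 and lay 9 bp from a control region. An empty stretch of 169 kb, from 32236547 to 32405321, ran across the border of class III and class II. Another, of 127 kb, lay within class II from 32658225 to 32784841.

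The remainder was sparse, and the control list was the longer one there. Its strongest regions were again shared. At chr6:29520387-29520591 the knockdown region had 21 reads and a fold of 14.6, while the control region had 22 reads and a fold of 15.6, the highest control fold of the window. At chr6:33422127-33422397 there were 21 knockdown and 14 control reads, with folds of 14.3 and 10.9. At chr6:33216928-33217344 there were 23 knockdown and 20 control reads, with folds of 11.9 and 12.5. The widest regions were chr6:25279177-25279806 in the knockdown list, 630 bp long with 14 reads, and chr6:28833715-28834459 in the control list, 745 bp long with 13 reads. The strongest region in the knockdown list alone was chr6:33601571-33601745, with a fold of 8.89 and 12 reads, and in the control list alone chr6:33257272-33257394, with a fold of 9.29 and 11 reads. This control-only region lay 122 bp from a knockdown region. Of the 42 control-only regions of the remainder, 22 were more than 10 kb from any knockdown region. Of the 20 knockdown-only regions, 5 were that far from any control region. Distances were not counted over all regions, so these numbers are a description of the block only.

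Regions of high fold were rarely confined to 1 list in the window. At a fold of at least 8, 5 of 111 knockdown regions had no control partner, or 4.505% (1.48 to 10.2%), where 2.12% of all knockdown regions of that fold had none. Of 92 control regions of that fold, 3 had no knockdown partner, or 3.26% (0.678 to 9.23%), where 9.91% of all such control regions had none. On the rest of chromosome 6 these shares were 2.08% of 912 knockdown and 10.1% of 1032 control regions. In the histone cluster 0 of 20 such control regions lacked a partner, which allows a share of up to 16.8%, and 2 of 24 knockdown regions did. At a fold of at least 10 there was no such region among 60 knockdown and 40 control regions, with upper bounds of 5.96 and 8.81%. Of the 5 knockdown-only regions, the one with most reads was chr6:26156488-26156693 in the histone cluster, with 21 reads and a control region 985 bp away, and it was singled out after its values were seen. The control-only region chr6:28749622-28749796 of the remainder, also singled out afterwards, had 11 reads and lay 56724 bp from any knockdown region.

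The regions of 1 list were weak in the window, as they were over all regions. Knockdown-only regions of the window had a median summit of 7 reads and a median fold of 4.97, against a median fold of 7.45 for knockdown regions with a partner. Over all knockdown regions these values were 7 reads and 5.30, against 7.87. Control-only regions of the window had a median summit of 6 reads, which corresponds to 8.05 reads at the depth of the knockdown library. Their median fold was 4.84, against 6.83 with a partner. Over all control regions these values were 6 reads and a fold of 4.95, against 7.91. The smallest width of the list was found in 20 of 71 knockdown-only and 30 of 99 control-only regions. A region of the other list lay within 500 bp of 29 knockdown-only and 30 control-only regions. At the other end, 14 knockdown-only and 41 control-only regions were more than 10 kb from any region of the other list. The median distance was 985 bp for knockdown-only and 5894 bp for control-only regions. These numbers by width and distance were not taken over all regions. Whether they are usual for lists of these lengths therefore cannot be said.

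Summits at shared positions were higher in reads in the knockdown than in the control library, though by less than the difference in depth. Over the 255 pairs of the window the knockdown summit had a median 1.17 times the reads of the control summit, where read number and extension length together would give 1.34 times. The depth-scaled log2 ratio had a median of -0.20 (95% interval -0.24 to -0.14), with quartiles at -0.42 and 0.10. On the rest of chromosome 6 it was -0.26 (-0.30 to -0.23) over 1922 pairs, and on the rest of the series -0.24 (-0.25 to -0.23) over 33103 pairs. Of the 255 pairs, 175 lay below 0, or 68.6%, against 70.3% of all pairs. The interval of the window's median thus overlaps those of the other areas. Some pairs share a knockdown region, since 8 knockdown regions of the window were used in 2 or more pairs.

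**Figure D3:**
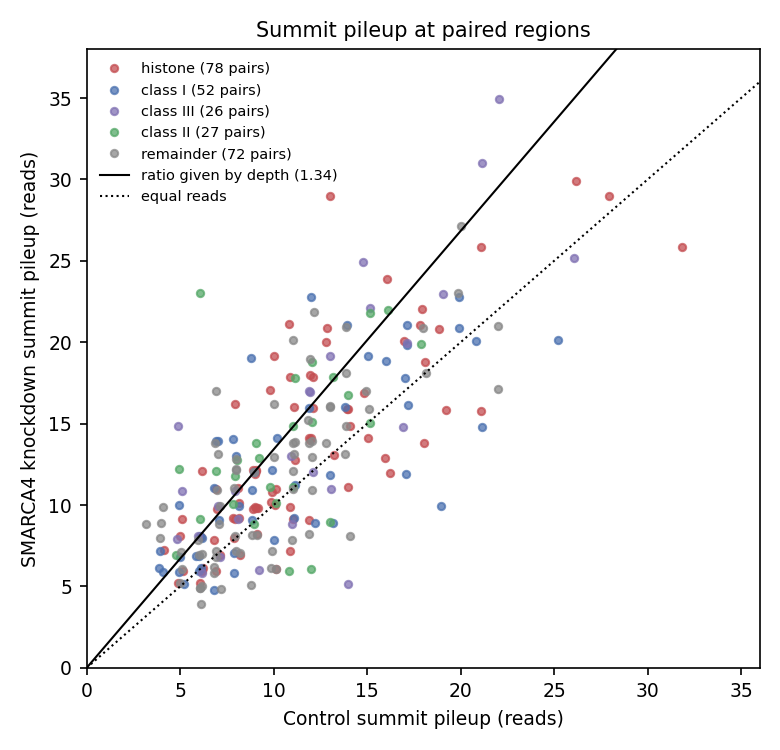
Summit pileup in reads at the 255 paired regions of the window, with the SMARCA4 knockdown on the vertical and the control on the horizontal axis, points moved slightly at random to separate ties, and colours for the 5 blocks. Of the pairs, 80 lie above the solid line of the ratio given by depth (1.34), 87 between it and the dotted line of equal reads, 26 on the dotted line and 62 below it, and the class II pair with 23 knockdown and 6 control reads stands far above both.

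The intervals of the block medians overlapped. Medians were -0.24 in the histone cluster (interval -0.29 to -0.18, 78 pairs), -0.18 in class I (-0.42 to -0.06, 52 pairs) and -0.08 in class III (-0.42 to 0.12, 26 pairs). In class II the median was 0.04 (-0.29 to 0.16, 27 pairs) and in the remainder -0.20 (-0.42 to -0.10, 72 pairs). Knockdown summits were below the level given by depth in 59 of 78 pairs of the histone cluster, 38 of 52 of class I, 14 of 26 of class III, 12 of 27 of class II and 52 of 72 of the remainder. Ratios past 1 on the log2 scale were few. Of the 255 pairs, 13 were at -1 or less, or 5.10%, where 11.0% of all pairs were, and 3 were at 1 or more, or 1.18%, where 1.38% of all pairs were. The 13 low pairs were spread over the blocks, with 2 in the histone cluster, 1 in class I, 2 in class III, 2 in class II and 6 in the remainder. Of the 3 high pairs, 1 was in class III, 1 in class II and 1 in the remainder. The high pair of class III, chr6:31515226-31515423, had 15 knockdown and 5 control reads and a log2 ratio of 1.16 (-0.37 to 2.98).

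**Figure D4:**
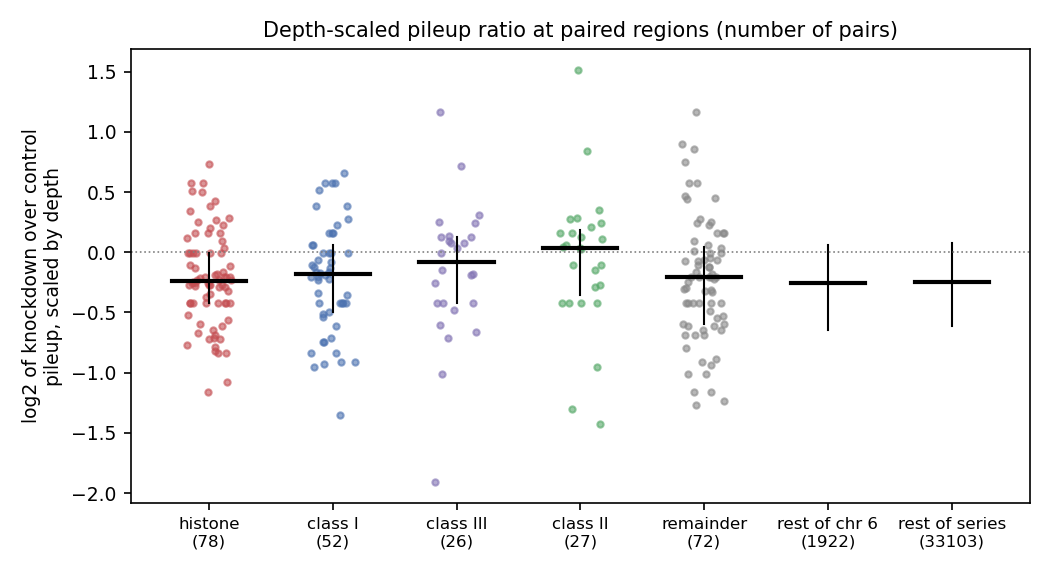
Log2 of the knockdown over the control summit pileup, scaled by depth (vertical axis), for the pairs of each block (points), with the median (thick bar) and interquartile range (thin line), and for the rest of chromosome 6 and the rest of the series (bars only). Medians run from -0.24 in the histone cluster to 0.04 in class II, and the interquartile ranges of all blocks overlap.

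Among pairs with at least 10 reads in 1 list, a further low end of this order was the class I pair at chr6:30687904-30688133. It had 10 knockdown and 19 control reads and a log2 ratio of -1.35 (-2.62 to -0.17). A further high end was a pair of the remainder at chr6:33256972-33257149. That pair of the remainder had 10 knockdown and 4 control reads, with a log2 ratio of 0.90 and an interval of -0.90 to 3.02 that includes 0. The order of strength was broadly shared. Across the 255 pairs, Spearman's rho between the knockdown and control pileups was 0.73, and by block it was 0.80 in the histone cluster, 0.78 in class I, 0.73 in class III, 0.43 in class II and 0.73 in the remainder. These values describe regions within 1 library of each kind, which are not independent replicates. Summits of paired regions were a median of 38 bp apart in the window (interquartile range 15 to 76 bp), against 28 bp on the rest of the series (11 to 56 bp).

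The reads around the regions were most numerous in the histone cluster, in both libraries. The number of reads in the surrounding 10 kb had a median of 98 in the knockdown and 75 in the control library for regions of the histone cluster, against 64 and 44 over all regions. In multiples of each library's mean over the genome these medians were 2.71 in the knockdown and 2.94 in the control. The knockdown and control medians were 61 and 41 reads in class I, 72 and 57 in class III, 58 and 50 in class II, and 51 and 40 in the remainder. They include the reads of the regions themselves, so they rise where regions are dense. Within the histone cluster, the 250 kb from 26000001 to 26250000 had medians of 154 knockdown and 115 control reads over 29 and 25 regions, and those from 27750001 to 28000000 had 125 and 116 reads over 13 and 13 regions. From 26250001 to 26500000 the medians were 59 knockdown and 38 control reads over 17 and 13 regions.

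**Figure D5:**
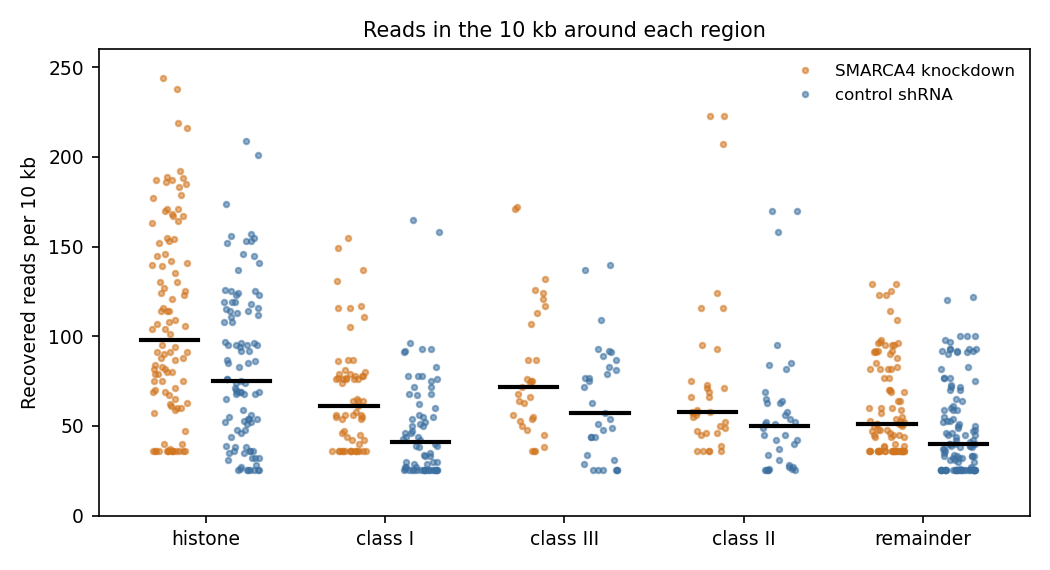
Recovered reads in the 10 kb around each accessible region (vertical axis) by block, for the SMARCA4 knockdown library (left column of each pair) and the control library (right column), with a bar at the median. Regions at the lowest background of their library are drawn at its genome mean, and the histone cluster has the highest medians (98 knockdown, 75 control).

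At paired regions these surrounding reads were compared directly. Over the 203 pairs of the window whose background lay above the lowest value in both lists, the knockdown library had a median 1.24 times the control reads in the surrounding 10 kb, or 0.874 of its read number ratio. The rest of the series had 1.29 times over 27730 pairs, or 0.911. With summits scaled to these surrounding reads in place of the whole library, the median log2 ratio of the window was 0.05 (-0.03 to 0.09), against -0.13 on the rest of the series (-0.13 to -0.12). Scaled by depth, the window's median had been -0.20 over all 255 pairs. These medians differ in sign, but also in the pairs used, and the interval under local scaling includes 0. Under local scaling the medians were -0.03 in the histone cluster, -0.01 in class I, 0.09 in class III, 0.22 in class II and 0.08 in the remainder.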

How the data were processed

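Accessible chromatin was measured by ATAC-seq (transposase insertion into open chromatin) in 2 libraries, 1 with SMARCA4 knocked down and 1 with a control shRNA, grouped by their genotype labels. Reads were processed with bcl2fastq (2.17.1.14), BWA and MACS2 on hg19, per the submitters' processing notes, which give no parameters. Histone and HLA genes have near-identical copies, and the sources used here do not state how reads that map to several copies were placed, so values there are uncertain. The authors deposited 1 peak list per library, with each peak's fold enrichment as a ratio, its −log10 p and q values and a score, 10 times the −log10 q without decimals. The deposited fold and p of a peak fix its summit pileup and expected background, which were solved from a Poisson tail. The deposited −log10 p values were met within 4.2e-05. All 35507 knockdown and 43837 control backgrounds above the lowest were whole reads per 10 kb (tolerance 0.02). The lowest backgrounds and shortest peaks (89 bp in the knockdown, 94 bp in the control list, taken as extension lengths) gave the depth ratio. The recovery was tested on simulated data, and overlaps were tested against bedtools 2.31.1. Peaks of 1 library are compared with the other list by overlap, and each control region was paired with the overlapping knockdown region of highest pileup. Shares given by strength used 13 bands of fold, 14 of pileup, or fold bands split into 4 width classes. Intervals are 95% exact binomial, for single pairs on their reads, and for medians from order statistics; they cover counting error only, since amplified reads without molecular identifiers are not independent molecules. Named regions are, per block, the 2 highest folds and the widest region of each list, the strongest region of 1 list, and the 3 highest and 3 lowest pair ratios with at least 10 reads in 1 list; others are marked as chosen afterwards. One region that this rule names is not reported here. Blocks, lists and limits were chosen with earlier results of these data known. No sequence was read, since no genome of build hg19 was used here. Analyses used Python 3.11.15, pandas 2.3.3 and scipy 1.17.1.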

Additional observations from a re-analysis of the deposited data

How the results depend on the processing

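No paired analysis was possible because each group had 1 library, and leaving out a replicate was not possible for the same reason. In the window, the overlapped share was 78.0% of knockdown and 72.03% of control regions. It was 71.5 and 63.0% with 50% of the region covered, 61.0 and 55.6% with reciprocal overlap of 50%, 87.0 and 80.5% with a gap of up to 500 bp, and 64.7 and 82.7% with lists of equal length, which cuts only the control list. At q-values of at most 1e-05 the knockdown share was 73.1%. The difference of the knockdown share from that given by fold, 1.98 percentage points, reversed to -0.14 with bands of pileup and -0.047 with fold and width. In the histone cluster 0.36 points reversed to -7.69 and -4.16. Regions of fold 8 or more in 1 list, 5 knockdown and 3 control, became 14 and 13 with reciprocal overlap and 0 and 0 at a fold of 10. The median log2 pileup ratio, -0.20, reversed to 0.052 with reads of the surrounding 10 kb and to 0.042 relative to the median of all pairs. The first scaling used only the 203 pairs with a background above the lowest value in both lists. The second scaling sets the genome to 0 by construction. By block, scaling to surrounding reads reversed class III to 0.087 and the remainder to 0.081, and centring on all pairs reversed the histone cluster to 0.0060, class I to 0.061, class III to 0.16 and the remainder to 0.042. Otherwise the cause was not tested. Of the values recomputed by block, 151 stayed inside the interval of the original value (counts within 1.5 times of it), 41 lay outside, and 8 reversed. For the window, knockdown numbers and covered lengths as percentages of the control moved by less than the counting interval of the number with q-values of at most 0.001 or 1e-05, with folds of at least 5 and by midpoint, and overlapped shares did so with borders moved by 100 kb. The window's covered length still passed from 94.7% to 104% at q-values of at most 1e-05 and 100.5% at folds of at least 5. In class II the number passed from 92.1% to 103, 108 and 111% at the 2 q limits and the fold limit. No such values are given for the rest of the series. Summits of 4 to 21 reads in knockdown-only and 3 to 11 reads in control-only regions limit what can be said of them.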
